A study of Mus musculus with 8 samples.

Results

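The genes described here are 33 genes of protein folding in the endoplasmic reticulum (ER) and of the unfolded protein response. They were matched by gene symbol among the 55665 genes of the deposited count and TPM tables (TPM is a level scaled to transcript length and library). The list was drawn up with earlier results of these data known. All 33 passed the filter on low counts, so none is missing from the comparisons below. They were followed over 4 groups of 2 libraries in mouse nTreg cells, a regulatory T cell population, with and without the Foxp3 guide and before and after T cell receptor (TCR) stimulation.

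All 8 libraries came from CD4+GFP+ cells that were sorted from lymph nodes and spleen of RosaCas9/+ Foxp3gfp mice and cultured ex vivo, so every group, controls included, carried the Cas9 allele and the Foxp3 reporter. The 4 groups were sgNC (control guide) with Mock (DPBS) at 0 h, sgNC with anti-CD3/anti-CD28 for 3 h, sgFoxp3 (Foxp3 guide) with Mock (DPBS) at 0 h, and sgFoxp3 with anti-CD3/anti-CD28 for 3 h. Every Mock library was at 0 h and every stimulated one at 3 h, so stimulation and time cannot be told apart. The name TCR effect below stands for both together. The study asked which genes respond to loss of Foxp3 with or without TCR stimulation. Age of the mice, pooling of animals and separation of cultures are not given in the sources used here, so the p-values reflect only how far these libraries lie apart, which can be technical scatter. Total counts per library ran from 38729009 to 48626432 with the control guide and from 55865290 to 94807362 with the Foxp3 guide. Depth therefore went with guide, and its part in the guide comparisons was not tested. Foxp3 itself was measured in CPM (counts scaled to library size), at 764 and 776 in the 0 h and 679 and 673 in the 3 h libraries of the control guide, against 87.6 and 88.5 at 0 h and 76.1 and 71.8 at 3 h with the Foxp3 guide, and matched the labels in all 8 libraries. The Foxp3-guide cells therefore still held Foxp3 transcripts, and Foxp3 protein was not measured. Il2ra, Ctla4, Ikzf2, Cd4, Cd3e and Trac, which mark Treg and CD4 T cells, were detected in every library. Among them the lowest value was 130 CPM, for Cd3e. Detection does not mean an unchanged level. Of 9 such markers read, Foxp3 included, 4 were at least 1.5-fold lower with the Foxp3 guide at each time. The share of all genes was 11.6% at 0 h and 15.3% at 3 h. At each time 3 of the 9 were higher, each by less than 1.5-fold. Il2ra was at 591 and 607 TPM (control guide) against 99.1 and 104 (Foxp3 guide) at 0 h.

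Secreted and membrane proteins enter the ER through the Sec61 channel and fold there with the help of the Hsp70 chaperone BiP (encoded by Hspa5), the Hsp90 chaperone GRP94 (Hsp90b1), the lectin chaperones calnexin and calreticulin, and enzymes that form disulfide bonds. Proteins that fail to fold are passed back to the cytosol for degradation by the HRD1 ubiquitin ligase and its partners. When unfolded proteins build up, the membrane sensors ATF6, IRE1 (Ern1) and PERK (Eif2ak3) start the unfolded protein response: ATF6 is cleaved to a transcription factor, IRE1 splices Xbp1 mRNA so that it encodes one, and PERK slows translation, which the phosphatase subunit GADD34 (Ppp1r15a) restores. Among lymphocytes the pathway is best known from plasma cells, which secrete antibody in bulk. Gene totals do not tell spliced from unspliced Xbp1, so none of the values below measures IRE1 activity.

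The ER stress response element (ERSE) is the promoter sequence through which ATF6 and XBP1 are known to raise chaperone genes. Its matches are shown here as a feature of sequence by which the 33 genes can be divided. The genes were chosen for their part in this same response. A larger share with the element than among all promoters can therefore follow from that choice alone. RefSeq promoters on GRCm38.p6 (250 bases before to 50 after the start) were found for 28 of the 33 genes, Ero1l under its present name Ero1a, and both strands were searched. The full ERSE is CCAAT, 9 bases of any kind and CCACG. It was matched in 9 of the 28 genes (32.1%) and in 39 of all 32851 promoters (0.119%). Here and in the next sentences a gene counted once if any of its promoters matched. The share of all was taken over single promoters, so the units differ. The shorter ERSE-II, which is ATTGG, 1 base of any kind and CCACG, was matched in 2 of the 28 (7.14%) and in 12 of all (0.0365%). The 8-base core of the XBP1 element, TGACGTGG, was matched in 0 of the 28 and in 0.676% of all promoters. The parts CCAAT and CCACG, which both ERSE forms contain on one or the other strand, were each common alone: CCAAT in 78.6% of the 28 and 37.4% of all, CCACG in 85.7% and 32.8%. The matches follow, 5′ to 3′ on the strand of the gene, with the fixed bases in capitals and the variable spacer in lower case, and positions counted from the RefSeq start. A match that reads CGTGG first and ATTGG last is the ERSE on the opposite strand.
Hspa5, position -65: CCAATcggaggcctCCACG
Pdia6, position -98: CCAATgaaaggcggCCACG
Syvn1, position -44: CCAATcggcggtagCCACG
Dnajc3, position -105: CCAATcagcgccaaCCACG
Canx, position -145: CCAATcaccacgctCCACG
Hsp90b1, position -212: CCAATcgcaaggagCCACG
Hsp90b1, position -107: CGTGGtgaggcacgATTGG
Calr, position -162: CGTGGtcgaccctcATTGG
Creld2, position -126: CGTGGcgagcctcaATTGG
Derl3, position -156: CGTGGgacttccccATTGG
Herpud1, position -52: ATTGGgCCACG
Dnajb11, position 8: ATTGGcCCACG
These letters are a description of the sequence and do not show that a factor was bound. Hspa5 and Herpud1 are shown over the 250 bases before their starts, since the first had the largest TCR effect in both guides and the second had the largest difference between the guides in its TCR effect. The capitals again mark the fixed bases of the match.
Hspa5, chr2:34771840-34772089, plus strand: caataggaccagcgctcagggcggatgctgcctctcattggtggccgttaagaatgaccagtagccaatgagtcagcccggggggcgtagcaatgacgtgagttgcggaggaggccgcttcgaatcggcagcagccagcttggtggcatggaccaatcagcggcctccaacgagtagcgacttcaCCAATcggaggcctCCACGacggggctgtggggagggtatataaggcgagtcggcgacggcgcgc
Herpud1, chr8:94386179-94386428, plus strand: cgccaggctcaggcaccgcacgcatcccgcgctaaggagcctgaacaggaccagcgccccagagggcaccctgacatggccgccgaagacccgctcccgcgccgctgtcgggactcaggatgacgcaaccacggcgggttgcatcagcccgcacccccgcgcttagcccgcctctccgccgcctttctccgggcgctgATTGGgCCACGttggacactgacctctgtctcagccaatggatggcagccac

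Whether the summed level of the 33 genes differed between the guides at 0 h depends on the unit. In TPM, which corrects for transcript length, their sum was 2879 and 2942 in the control-guide libraries at 0 h and 2917 and 2914 in the Foxp3-guide libraries at 0 h. At 3 h it was 4791 and 4677 with the control guide and 5643 and 5542 with the Foxp3 guide, so in TPM the guides' libraries overlapped at 0 h and did not at 3 h. In CPM the sum was 3221 and 3248 (control guide) against 3773 and 3800 (Foxp3 guide) at 0 h. At 3 h it was 6807 and 6706 against 8903 and 9028 CPM, so these did not overlap at either time. The 3 h mean over the 0 h mean in TPM was 1.63 for control-guide cells and 1.92 for Foxp3-guide cells, and Hspa5 alone made up 57.7% and 44.2% of the increase in the sum. At 0 h the highest mean TPM level in both guides was that of Ppib, the ER cyclophilin, at 404 (control guide) and 466 (Foxp3 guide). At 3 h it was Hspa5, at 1228 and 1342, followed by Calr at 514 and 621. Derl3 was lowest in every group, from 0.53 to 1.47 TPM. Read assignment is less certain for Hsp90b1, Sec61b, Derl1 and Dnajb9, whose expected counts were not whole in 1 to 8 libraries, and for Hsp90b1, Pdia4 and Manf, which overlap an exon of another gene on the same strand; the other genes had counts within 0.005 of a whole number throughout. Some neighbours in the order had overlapping libraries, though most did not. With the Foxp3 guide at 3 h, the libraries of Hsp90b1 (mean 331 TPM) overlapped those of Sec61a1 (mean 320). In the same group those of Sec61b overlapped those of Canx (both at a mean of 271).

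**Figure D1:**
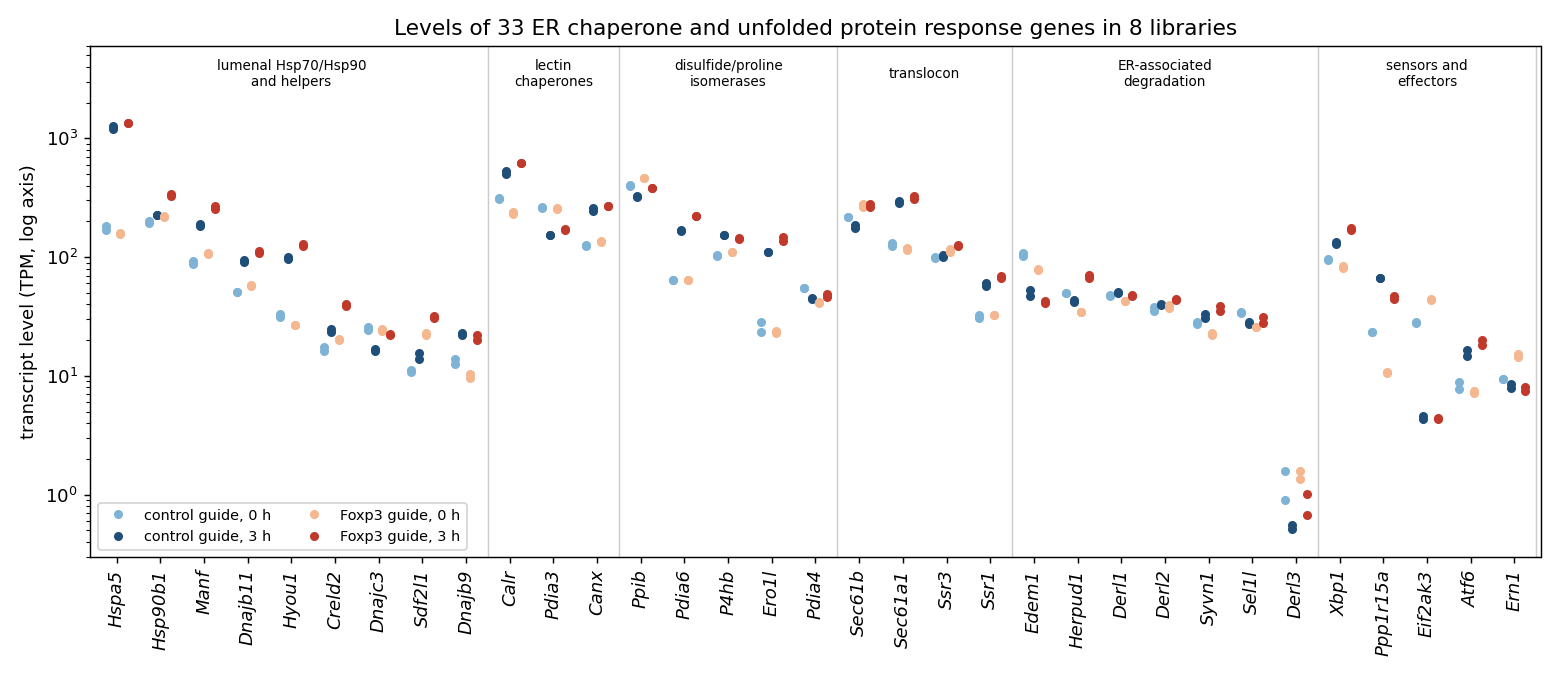
TPM levels of the 33 genes on a log axis, with 1 point per library and the 4 groups side by side, grouped by role. The 4 libraries at 3 h put Hspa5 at 1194 TPM or above while the 4 at 0 h lie at 184 or below, and Derl3 is the lowest gene in every library.

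TCR stimulation was followed by higher levels of most of these genes with either guide, led by Hspa5, the disulfide oxidase gene Ero1l and the large Hsp70-like chaperone gene Hyou1. With the control guide, 27 of the 33 were higher and 5 lower at 3 h than at 0 h by edgeR's quasi-likelihood test with a Benjamini-Hochberg adjusted p below 0.05, the threshold used throughout; Pdia4 did not pass. Of all 16642 genes tested, 81.8% passed, 40.9% higher and 40.9% lower, so passing was common and the direction is what the counts can be read for. At least 1.5-fold changes were found for 18 genes upward and 3 downward, against 30.3% and 32.1% of all genes (62.3% together). The median log2 change of the 33 was 0.81, against -0.01 for all genes. With the Foxp3 guide, 27 were higher and 5 lower, Ppib did not pass, 20 were at least 1.5-fold higher and 4 lower, and the median was 0.96, against -0.07 for all genes. There 85.4% of all genes passed, 40.8% higher and 44.5% lower, and 30.4% and 35.8% (66.2% together) did so by at least 1.5-fold. On the log2(TPM + 1) scale the medians were 0.40 and 0.69, against -0.20 and -0.18 for all genes. Because the TPM scale moves the median of all genes by more than 0.1, the distance between the medians is given too. It was 0.59 to 0.82 (control guide) and 0.87 to 1.03 (Foxp3 guide) over 6 ways of scaling. Count scalings (TMM, RLE, upper quartile, DESeq2) shift all genes nearly alike, so the distance could hardly move among them (0.82 and 1.03). Only the TPM scales could move it, to 0.59 and 0.75 (control guide) and 0.87 and 1.02 (Foxp3 guide). The same limit holds for this distance in the comparisons below. On the TPM scale 66.7% of the genes passing with the control guide were higher, against 84.4% on the count scale, and 80.6% against 84.4% with the Foxp3 guide. Over all genes the same shares were 37.2% against 50% and 38.7% against 47.8%. In bulk RNA, fewer cells with a transcript and less transcript per cell cannot be told apart.

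Among the 9 lumenal chaperones and their helpers, 8 rose with the control guide and all 9 with the Foxp3 guide, though Dnajc3 with the Foxp3 guide was slightly lower on the TPM scale (-0.12) and not past the threshold there. Hspa5 was at 168 and 175 CPM at 0 h and 1581 and 1516 at 3 h with the control guide, and at 187 and 186 at 0 h and 1938 and 1982 at 3 h with the Foxp3 guide. The gene (ENSMUSG00000026864.13) lies on chromosome 2 at 34771970 to 34777547 of GRCm38. Its 3 h libraries lay far above its 0 h libraries in both guides, with log2 changes of 3.17 ± 0.045 (SE) and 3.40 ± 0.045, or 9.02-fold and 10.5-fold (edgeR adjusted p = 1.6e-26 and 2.1e-27). Hyou1 was at 66.7 and 68.6 CPM at 0 h and 270 and 268 at 3 h with the control guide, and at 66.3 and 68.2 and then 403 and 397 with the Foxp3 guide. The guides overlapped at 0 h and were separate at 3 h, and the changes were 1.99 ± 0.04 and 2.57 ± 0.039. Manf, which encodes a small secreted helper of BiP, changed by 1.39 ± 0.044 and 1.56 ± 0.04. GRP94 differed from BiP in the size of its response: Hsp90b1 was at 247 in both control-guide libraries at 0 h and at 377 and 375 CPM at 3 h, and rose from 339 and 346 to 624 and 650 with the Foxp3 guide. Its log2 changes were 0.60 ± 0.04 and 0.90 ± 0.039. Creld2, an ER stress-inducible gene of the lumen, changed by 0.88 ± 0.065 and 1.27 ± 0.054, and Sdf2l1, which encodes a partner of the BiP cochaperone ERdj3, by 0.81 ± 0.09 and 0.78 ± 0.065. Dnajc3, the BiP cochaperone p58IPK, was the exception among the chaperones, at 69 and 71.5 CPM at 0 h and 59.6 and 58.5 at 3 h with the control guide, a change of -0.25 ± 0.042.

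The genes of the lectin cycle did not move together. Calr (calreticulin) went from 267 and 274 CPM to 582 and 576 with the control guide and from 247 and 250 to 786 and 811 with the Foxp3 guide, changes of 1.10 ± 0.04 and 1.68 ± 0.04. Canx (calnexin), its membrane-bound counterpart, went from 196 and 201 to 511 and 484 and from 252 and 264 to 617 and 624, changes of 1.33 ± 0.042 and 1.27 ± 0.042. Pdia3 (ERp57), the disulfide isomerase that works with both, went the other way. It was at 336 and 342 CPM at 0 h and 252 and 256 at 3 h with the control guide, and at 399 and 402 and then 326 and 335 with the Foxp3 guide, changes of -0.42 ± 0.038 and -0.28 ± 0.038. The 0 h and 3 h libraries did not overlap within either guide for any of these 3 genes.

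Of the 5 isomerase and oxidase genes, 4 were higher at 3 h with each guide, among them Ppib with the control guide, which was lower on the TPM scale (0.09 and -0.31). Ero1l, the oxidase that recharges the isomerases, went from 52.7 and 56.8 to 292 and 282 CPM with the control guide and from 53.9 and 55.7 to 444 and 435 with the Foxp3 guide. The log2 changes were 2.39 ± 0.044 and 3.0 ± 0.043, and the 2 guides' libraries were interleaved at 0 h and separate at 3 h. Pdia6 rose by 1.76 ± 0.039 and 2.04 ± 0.038 and P4hb (PDI itself) by 0.93 ± 0.038 and 0.69 ± 0.037. All 4 translocon genes were higher at 3 h with each guide on the count scale, although Sec61b (0.15 and 0.28) was lower on the TPM scale with the control guide (-0.27) and not past the threshold there with the Foxp3 guide. Sec61a1, the pore subunit, changed by 1.59 ± 0.039 and 1.73 ± 0.039.

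Of the 7 degradation genes, 5 were higher and 2 lower with each guide, and their median of 0.19 with the control guide turned to -0.23 on the TPM scale, where Herpud1 and Sel1l had the other sign (-0.23 and -0.29). Herpud1, a membrane partner of the HRD1 ligase, was at 41.2 and 41.6 CPM at 0 h and 44.5 and 47.2 at 3 h with the control guide. The change of 0.15 ± 0.047 (edgeR adjusted p = 0.0066) was lost without control-guide 3 h replicate 2 (adjusted p = 0.064) and was -0.23 on the TPM scale. With the Foxp3 guide Herpud1 went from 33 and 32.6 to 85.3 and 83.3 CPM, a change of 1.36 ± 0.044. Edem1, a lectin that delivers misfolded glycoproteins to degradation, fell in both: from 230 and 225 to 140 and 135 CPM with the control guide (-0.73 ± 0.038) and from 207 and 209 to 129 and 127 with the Foxp3 guide (-0.70 ± 0.037). Derl3 was near the detection limit, at 0.76 and 0.449 CPM at 0 h and 0.289 and 0.283 at 3 h with the control guide, and at 0.994 and 0.786 and then 0.388 and 0.365 with the Foxp3 guide. Its changes were -1.06 ± 0.36 and -1.25 ± 0.28 (edgeR adjusted p = 0.0098 and 0.00022). The first was not past the threshold without control-guide 0 h replicate 1, at -0.65 and an adjusted p of 0.17.

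The sensor and effector genes did not move together. Eif2ak3 (PERK) was at 62.1 and 61.7 CPM at 0 h and 13.5 and 12.9 at 3 h with the control guide, and at 113 in both 0 h libraries and 14.5 and 14.8 at 3 h with the Foxp3 guide. This was the largest fall among the 33 genes in either guide, by 2.23 ± 0.051 and 2.95 ± 0.047 on the log2 scale, or 4.69-fold and 7.7-fold lower. Ppp1r15a (GADD34), which reverses the PERK signal, went from 28.6 and 26.9 to 105 and 106 CPM and from 15.2 and 15.7 to 82.9 and 81.8, changes of 1.93 ± 0.047 and 2.41 ± 0.048. Atf6 went from 31.3 and 35 to 82.7 and 75.5 CPM and from 34.1 and 35.4 to 116 and 109, changes of 1.25 ± 0.056 and 1.69 ± 0.053. Xbp1 went from 89.5 in both libraries to 159 and 160 and from 93.4 and 96.2 to 242 and 241, changes of 0.83 ± 0.037 and 1.35 ± 0.036. The 0 h and 3 h libraries of these 4 genes did not overlap with either guide. Ern1 (IRE1), by contrast, was at 32.8 and 32.9 CPM at 0 h and 39.2 and 36.3 at 3 h with the control guide, a change of 0.20 ± 0.051 that had the other sign with upper-quartile scaling (-0.03) and on the TPM scale (-0.17). With the Foxp3 guide it fell from 65.1 and 63.3 to 41.7 and 40.2, by 0.65 ± 0.046.

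**Figure D2:**
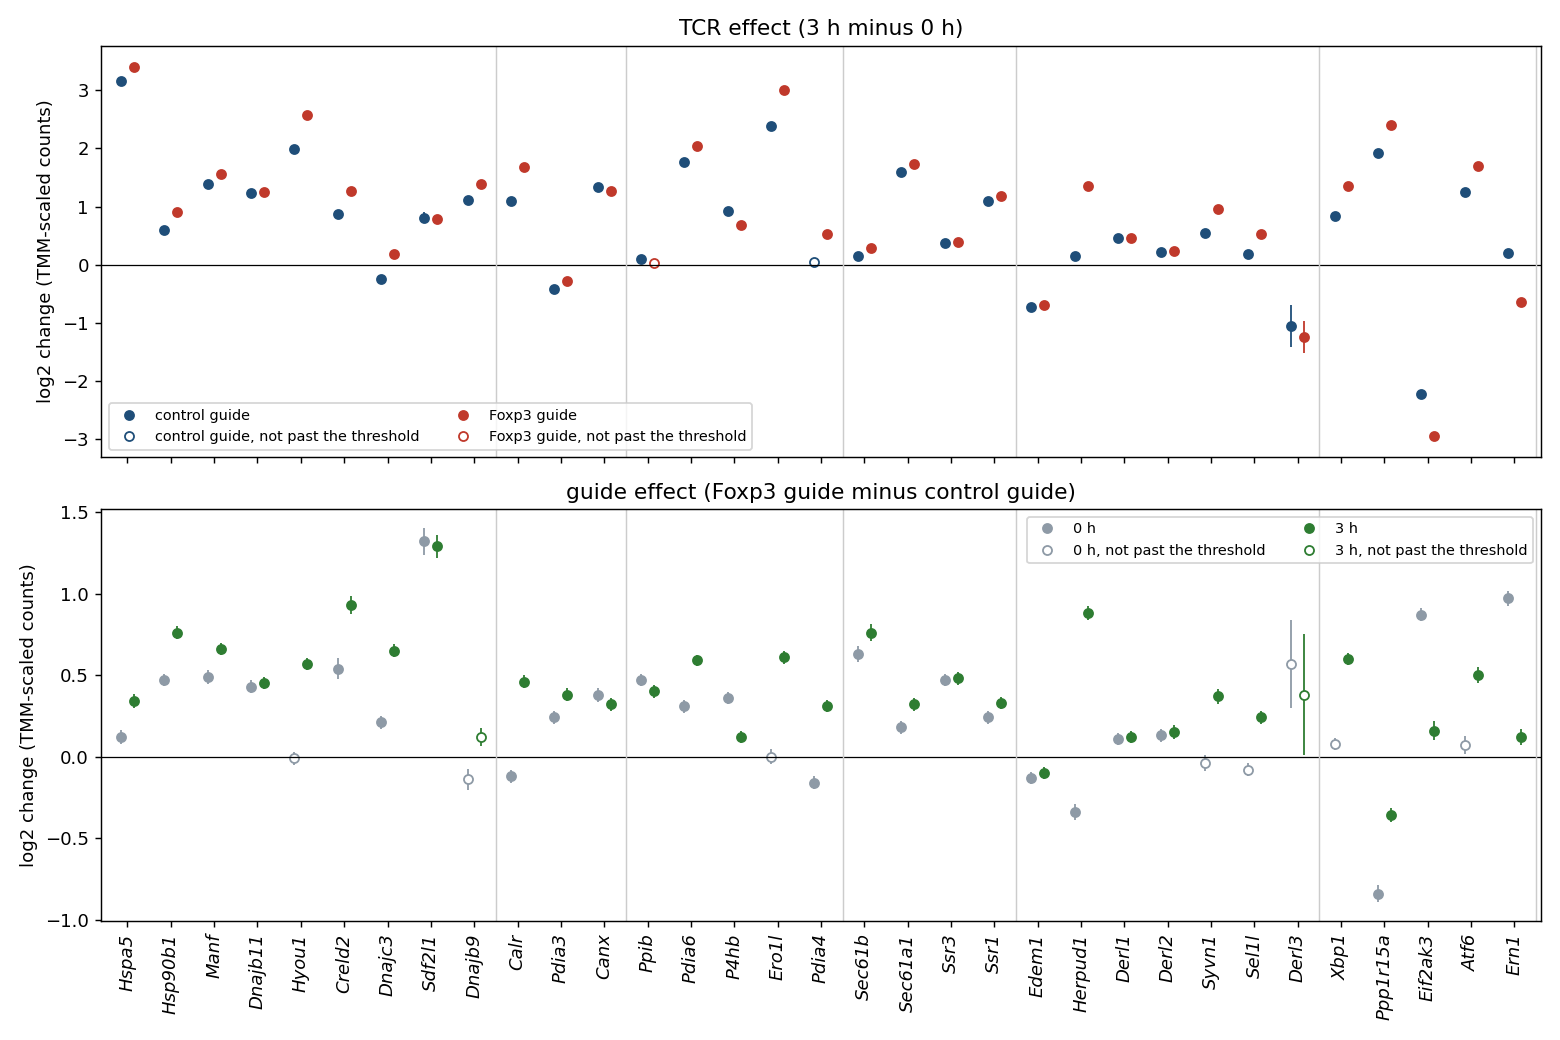
Log2 changes of the 33 genes on the count scale with their SE, filled where the edgeR adjusted p is below 0.05. Upper panel: TCR effect with each guide, where Hspa5 is highest (3.17 and 3.40) and Eif2ak3 lowest (-2.23 and -2.95); lower panel: guide effect at each time, where most 3 h values lie above 0 and Sdf2l1 is highest at both times (1.32 and 1.29).

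Before stimulation, the Foxp3 guide went with modest differences in both directions. Of the 33 genes, 20 were higher and 5 lower with the Foxp3 guide at 0 h, and 8 did not pass; of all genes, 63.3% passed, 34.2% higher and 29.1% lower. Changes of at least 1.5-fold were found for 4 genes upward and 1 downward, against 15.8% and 11.6% of all genes, and the median of the 33 was 0.21, against 0.02 for all. The sign of that median depends on the scale, since it was -0.03 on the log2(TPM + 1) scale, where all genes had a median of -0.15; the distance between the medians was 0.13 to 0.19 over the 6 scalings. Of the 25 genes that passed, 12 were higher and 5 lower past the threshold under every one of the 6 scalings, and 6 changed sign under some: Hspa5, Pdia3, Pdia6, Dnajc3, Derl1 and Sec61a1. On the TPM scale 48% of the passing genes were higher, against 80% on the count scale, and the same shares over all genes were 27.9% and 54%. The count of 5 lower genes fell to 3 without Foxp3-guide 0 h replicate 1.

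Sdf2l1 showed the largest difference, at 5.76 and 5.51 CPM (control guide) and 14.3 and 13.8 (Foxp3 guide) at 0 h, a log2 change of 1.32 ± 0.081 (edgeR adjusted p = 5.7e-13) or 2.49-fold. The sensor genes Ern1 and Eif2ak3 followed, at 0.97 ± 0.048 and 0.87 ± 0.041, and the libraries of the guides did not overlap for any of the 3. Sec61b, a small subunit of the channel, was 0.63 ± 0.051 higher (43.2 and 43.6 against 69.1 and 65.3 CPM), Creld2 0.54 ± 0.064 higher, Manf 0.49 ± 0.044 and Hsp90b1 0.47 ± 0.039. Ppp1r15a was the furthest in the other direction, at 28.6 and 26.9 CPM against 15.2 and 15.7, a change of -0.84 ± 0.052 (edgeR adjusted p = 5.2e-13). Herpud1 was lower by a smaller margin (-0.34 ± 0.047), as were Pdia4 (-0.16 ± 0.039), Edem1 (-0.13 ± 0.037) and Calr (-0.12 ± 0.04). The Edem1 call was lost without Foxp3-guide 0 h replicate 1 (edgeR adjusted p = 0.062), and the Calr call without that library, Foxp3-guide 0 h replicate 2 or control-guide 0 h replicate 2 (edgeR adjusted p = 0.1, 0.059 and 0.1). Hspa5 was 0.12 ± 0.042 higher on the count scale and at -0.16 on the TPM scale, and its call on the count scale was lost without control-guide 0 h replicate 1, Foxp3-guide 0 h replicate 1 or Foxp3-guide 3 h replicate 2 (edgeR adjusted p = 0.12, 0.068 and 0.064). For Xbp1 (0.08 ± 0.037), Atf6 (0.07 ± 0.057), Hyou1 (-0.01 ± 0.04) and Ero1l (0.00 ± 0.044) no difference passed the threshold on the count scale, and Derl3 at 0.57 ± 0.27 did not pass either (edgeR adjusted p = 0.07; 0.018 without control-guide 0 h replicate 1, at 0.99). Xbp1 passed without control-guide 3 h replicate 1, control-guide 3 h replicate 2 or Foxp3-guide 0 h replicate 1 (0.09, 0.09 and 0.11; edgeR adjusted p = 0.03, 0.034 and 0.047). Atf6 passed without control-guide 0 h replicate 2 (0.16; edgeR adjusted p = 0.049). On the TPM scale Xbp1 (-0.20) and Hyou1 (-0.25) were lower with the Foxp3 guide past the threshold (limma adjusted p = 0.0019 and 0.0018).

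After 3 h of stimulation the difference between the guides lay mostly in one direction. At 3 h, 29 of the 33 genes were higher and 2 lower with the Foxp3 guide, against 30.7% and 30.8% of all genes (61.5% in either direction). At least 1.5-fold differences were found for 10 genes, each upward, against 12% of all genes upward and 15.3% downward. The median of the 33 was 0.38 on the count scale and 0.23 on the TPM scale, 0.35 to 0.42 above that of all genes under the 6 scalings. Past the threshold under all 6 were 22 of the higher genes and both lower ones, Edem1 and Ppp1r15a, while Derl1, P4hb, Ern1 and Eif2ak3 changed sign under some. On the log2(TPM + 1) scale 3 genes, not 10, reached 1.5-fold.

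Sdf2l1 again led, at 9.1 and 10.6 CPM (control guide) and 23.1 and 24.8 (Foxp3 guide) at 3 h, a log2 change of 1.29 ± 0.072 (edgeR adjusted p = 1e-13). Creld2 was at 19.6 and 21.4 against 39.2 and 38.8 (0.93 ± 0.055) and Herpud1 at 44.5 and 47.2 against 85.3 and 83.3 (0.88 ± 0.044). No library of one guide reached those of the other for these genes. Hsp90b1 was 0.76 ± 0.039 and Sec61b 0.76 ± 0.051 higher, Manf 0.66 ± 0.039, Dnajc3 0.65 ± 0.041, Ero1l 0.61 ± 0.04, Xbp1 0.60 ± 0.036, Pdia6 0.59 ± 0.036 and Hyou1 0.57 ± 0.036. Atf6 was 0.50 ± 0.051, Calr 0.46 ± 0.039, Hspa5 0.34 ± 0.041 and Pdia4 0.31 ± 0.039 higher, of which Hspa5 (0.13) and Pdia4 (0.09) had adjusted p-values of 0.052 and 0.081 on the TPM scale with limma. Ppp1r15a stayed lower, at 105 and 106 against 82.9 and 81.8 CPM (-0.36 ± 0.042), and Edem1 was at 140 and 135 against 129 and 127 (-0.10 ± 0.038). The Edem1 call was lost without control-guide 3 h replicate 1, Foxp3-guide 3 h replicate 1 or Foxp3-guide 3 h replicate 2 (edgeR adjusted p = 0.17, 0.053 and 0.49), which takes the count of lower genes from 2 to 1. Eif2ak3 (0.16 ± 0.057) and Ern1 (0.12 ± 0.049) differed little on the count scale and had the other sign on the TPM scale (-0.04 and -0.08). The Eif2ak3 call was lost without control-guide 3 h replicate 2 (edgeR adjusted p = 0.12) and the Ern1 call without any of 5 libraries (edgeR adjusted p from 0.05 to 0.39).

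**Figure D3:**
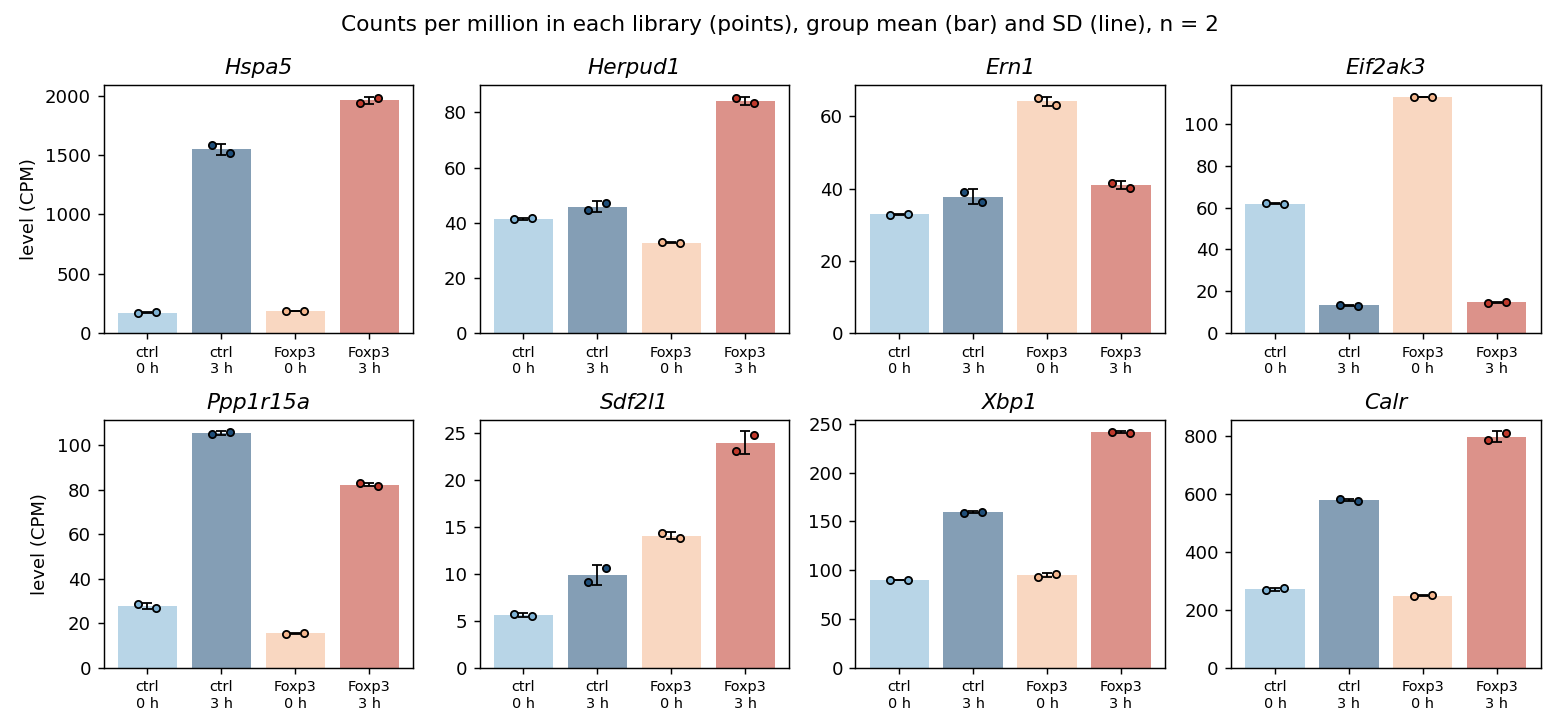
CPM of 8 genes in each library (points) with the group mean (bar from 0) and SD (line), n = 2 per group. Herpud1 is raised at 3 h with the Foxp3 guide (83.3 and 85.3 CPM) but stays at 44.5 and 47.2 with the control guide, and Ern1 and Eif2ak3 are highest in the Foxp3-guide libraries at 0 h.

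The TCR effect itself differed between the guides for 22 of the 33 genes, tested as the difference between the log2 TCR effects (Foxp3 guide minus control guide) in the same model. It was more positive with the Foxp3 guide for 19 and less positive or more negative for 3, and of all genes 44.8% passed, 17.8% upward and 27% downward. Differences of at least 1.5-fold were found for 3 genes upward and 2 downward, against 6.63% and 12.2% of all genes; these 5 were 3 without control-guide 0 h replicate 2, control-guide 3 h replicate 2 or Foxp3-guide 0 h replicate 1. The median difference was 0.17 on the count scale and 0.27 on the TPM scale, and 0.26 to 0.29 above that of all genes under the 6 scalings. No gene that passed changed sign under any of the 6. The share of upward calls over all genes moved from 39.7% to 50.2% with DESeq2 and 51.3% on the TPM scale, while that of the 33 genes was 86.4%, 87% and 86.4%.

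Herpud1 stood first, with a difference of 1.22 ± 0.064 (edgeR adjusted p = 1.4e-13): its level changed little with the control guide and 2.57-fold with the Foxp3 guide. Ero1l (0.61 ± 0.059), Calr (0.59 ± 0.056), Hyou1 (0.58 ± 0.054) and Xbp1 (0.52 ± 0.052) came next. Except for Calr (lower with the Foxp3 guide at 0 h), these genes did not differ between the guides past the threshold at 0 h on the count scale, and all 4 were higher with the Foxp3 guide at 3 h. Other differences were 0.48 ± 0.067 for Ppp1r15a, 0.47 ± 0.055 for Pdia4, 0.44 ± 0.077 for Atf6, 0.43 ± 0.057 for Dnajc3, 0.41 ± 0.065 for Syvn1 (the HRD1 ligase), 0.39 ± 0.085 for Creld2 and 0.32 ± 0.054 for Sel1l (the adaptor of HRD1). Hspa5, with the largest TCR effect, had a difference of only 0.22 ± 0.059 (edgeR adjusted p = 0.0032). The 3 negative differences were those of Ern1 (-0.85 ± 0.069), Eif2ak3 (-0.71 ± 0.071) and P4hb (-0.23 ± 0.053). Ern1 and Eif2ak3 had both started higher with the Foxp3 guide and ended at 3 h within 0.16 of the control guide on the log2 scale. Sdf2l1, with the largest guide effect, had a difference of -0.03 ± 0.11 and Canx of -0.06 ± 0.059; neither passed.

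**Figure D4:**
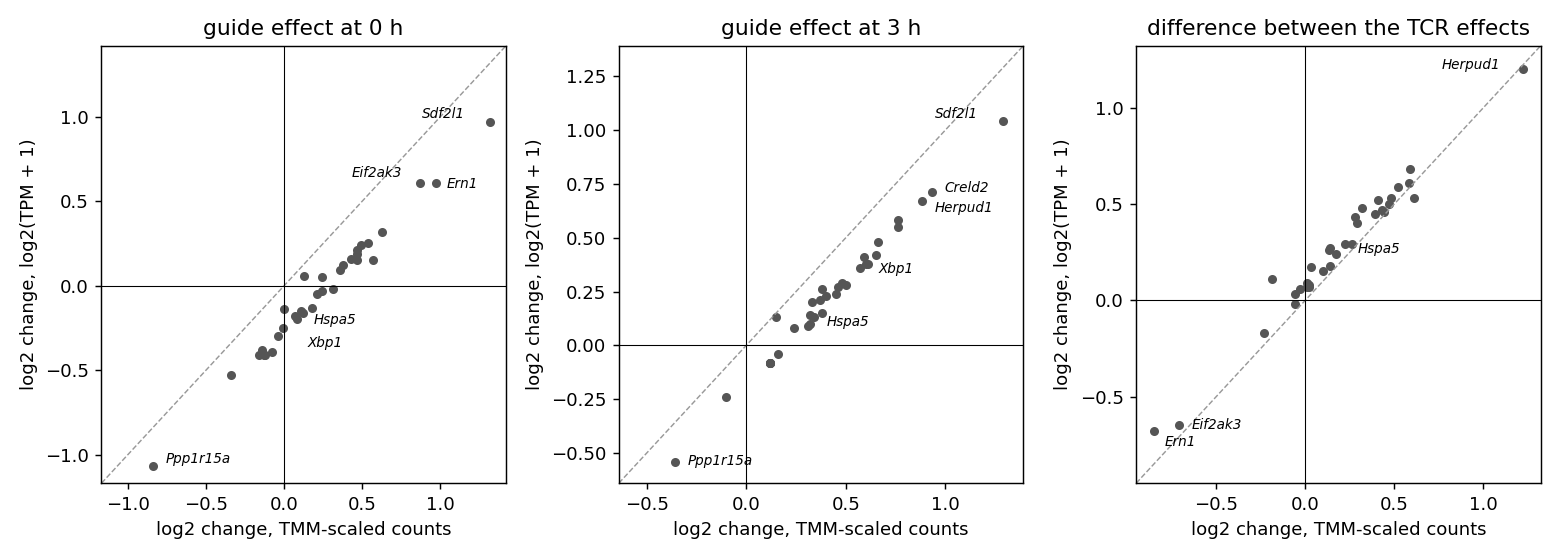
Log2 change of each of the 33 genes on the count scale (x axis) and on the log2(TPM + 1) scale (y axis) for the guide effect at 0 h, at 3 h and the difference between the TCR effects; the dashed line marks equal values. The guide effects lie below the line (Hspa5 at 0 h is 0.12 and -0.16), while the differences between TCR effects lie nearer to it (Herpud1 1.22 and 1.2), with Derl3 the furthest off (-0.19 and 0.11).

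Set against the promoter letters, the 11 genes with an ERSE or ERSE-II match had a median TCR effect of 0.88 in control-guide and 1.27 in Foxp3-guide cells. The 17 genes whose promoter held neither had medians of 0.21 and 0.52, and the 5 genes with no promoter in the table, among them Hyou1 and Atf6, had 1.39 and 1.69. The ranges overlapped widely, from -1.06 to 3.17 with a match and from -2.23 to 2.39 without one for the control guide. For the difference between the TCR effects the medians were 0.29, 0.10 and 0.17, with 8 of 11, 7 of 17 and 4 of 5 genes past the threshold upward. At 3 h the guide effect was upward past the threshold for 10 of 11 genes with a match, 14 of 17 without and 5 of 5 not searched. Of all genes tested, 17.8% passed upward for the difference and 30.7% for the guide effect at 3 h. Ero1l, Ppp1r15a and Sdf2l1, which were among the leading genes of a comparison, had no match in the 300-base window, while Derl3 (both guides) and Dnajc3 (control guide) had a match but fell with TCR. These are descriptions of a short window, with no test.

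Outside the 33 genes, other lists of the pathway were counted in the same fits. Of all genes, 40.9% rose and 40.9% fell with TCR in control-guide cells and 40.8% and 44.5% in Foxp3-guide cells. The difference between the TCR effects was upward for 17.8% and downward for 27%. Of 11 genes of the ATF4 and CHOP arm, which lies downstream of PERK and of amino acid shortage, 6 rose and 5 fell with TCR in control-guide cells, and 7 rose and 4 fell in Foxp3-guide cells. At 3 h, 8 of the 11 were higher and 1 lower with the Foxp3 guide, against 30.7% and 30.8% of all genes, with a median of 0.39 on the count scale and 0.15 on the TPM scale. Chac1, a glutathione-degrading enzyme gene of this arm, was at 0.599 and 1.01 CPM at 3 h in control-guide cells and 7.94 and 7.62 in Foxp3-guide cells, a log2 change of 3.27 ± 0.22. Trib3, a pseudokinase gene that is a target of ATF4 and CHOP, was at 18.2 and 18 CPM at 0 h and 1.71 and 2.27 at 3 h with the control guide, and at 21.4 and 20.3 and then 12.5 and 12.8 with the Foxp3 guide. It fell by 3.19 ± 0.099 and by 0.72 ± 0.065, and the difference of 2.47 ± 0.12 passed the threshold (edgeR adjusted p = 4.9e-14), as did that of the stress gene Nupr1 (2.25 ± 0.48). Atf4 itself rose by 1.83 ± 0.041 and 2.11 ± 0.04, and Asns, its asparagine synthetase target, by 3.50 ± 0.095 and 3.80 ± 0.072. Ddit3, the gene of CHOP itself, went the other way. It was at 56.4 and 51.9 TPM at 0 h and 18.6 in both 3 h libraries with the control guide. With the Foxp3 guide it was at 36.1 and 37.8 and then 16.7 and 17.3 TPM. Another entry of this symbol held at most 4 counts in any library. Its TPM values were nonetheless uneven, at 56.2 and 0 (0 h) and 0 and 10.9 (3 h) with the Foxp3 guide. They rest on almost no counts and are left out of the levels above. Ddit4, a brake on mTOR, fell by 1.75 ± 0.048 and 2.39 ± 0.048, and the immediate early gene Atf3 rose by 8.23 ± 0.097 and 7.72 ± 0.083.

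Of 27 other genes of ER entry and processing (further translocon, signal peptidase and glycosylation genes), 25 rose and 2 fell with TCR in control-guide cells, with a median of 0.70 (0.41 on the TPM scale), and 23 rose and 3 fell in Foxp3-guide cells, with 0.68 (0.37). Their TCR effects differed between the guides upward for 9 and downward for 9. Of 19 cytosolic heat shock genes, 18 rose in control-guide and 17 in Foxp3-guide cells, with medians of 1.51 and 1.52 (1.13 and 1.13 on the TPM scale), and 6 differed between the guides upward and 6 downward. Of 20 genes of ER exit and Golgi transport, 14 rose and 6 fell with the control guide and 16 rose and 3 fell with the Foxp3 guide. The COPII coat gene Sec24a was at 108 and 109 CPM at 0 h in control-guide cells and 47 and 49.9 in Foxp3-guide cells, a log2 change of -1.16 ± 0.044. Of 18 other degradation genes, 9 rose and 8 fell with the control guide and 10 rose and 5 fell with the Foxp3 guide; of 9 other sensors and site proteases, 5 rose and 4 fell with each, among them Creb3l1 (-1.76 ± 0.2 with the Foxp3 guide). Of 15 other folding enzymes, 10 rose and 3 fell with the control guide and 9 rose and 4 fell with the Foxp3 guide. In that list the ER prolyl isomerase gene Fkbp2 was 0.99 ± 0.075 higher with the Foxp3 guide at 0 h and Dnajc10, a disulfide reductase gene, lower at 3 h (-0.69 ± 0.045) with a difference between the TCR effects of -0.60 ± 0.063. Pdia5 at 0 h (0.88 ± 0.34, 8 to 35 counts in the 0 h libraries) and the small heat shock gene Hspb1 (-2.89 ± 0.56 at 0 h and -1.72 ± 0.5 at 3 h, 1 to 22 counts) rest on few counts, and the Pdia5 call was lost without control-guide 0 h replicate 1 or Foxp3-guide 0 h replicate 1 (edgeR adjusted p = 0.19 and 0.25).

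Markers of cells that the sort could have let through were read in the same libraries, since plasma cells are rich in these chaperones. The 11 plasma cell markers summed to 10.9 and 12 CPM in control-guide cells at 0 h, 5.59 and 3.99 at 3 h, 2.77 and 2.94 with the Foxp3 guide at 0 h and 6.59 and 7.02 at 3 h. Of them, 4 (Ighg2b, Ighg2c, Iglc1 and Iglc2) had 0 counts in all 8 libraries, and Mzb1 and Tnfrsf17 stayed at or below 0.0236 and 0.014 CPM. Most of the sum at 0 h with the control guide was Igha (9.7 and 10.8 CPM). Sdc1 moved as many of the ER genes did, from 0.648 and 0.754 to 3.95 and 2.29 CPM with the control guide and from 1.37 and 1.29 to 5.75 and 6.12 with the Foxp3 guide. Jchain was higher with the Foxp3 guide at 0 h (0.644 and 0.917 against 0.424 and 0.408 CPM) and at 3 h (0.571 and 0.657 against 0.355 and 0.142). The 10 B cell markers summed to 948 and 947 CPM in control-guide cells at 0 h and 97.6 and 99.9 at 3 h, and to 257 and 260 and then 33.5 and 34.4 with the Foxp3 guide, nearly all of it Ighm. The defining markers Pax5 and Ms4a1 were at most 0.0222 and 0.0708 CPM. Ebf1 went the other way from the sum with TCR, from 2.14 and 2.26 to 7.66 and 6.92 CPM (control guide) and from 0.63 and 0.582 to 4.63 and 4.29 (Foxp3 guide). Cd79b was higher with the Foxp3 guide at 0 h (3.71 and 4.15 against 2.64 and 2.39 CPM). The 5 stromal markers summed to 30.2 to 212 CPM, mostly the adhesion gene Pecam1, and were lower at 3 h with both guides. CD8 T cell (2 genes), NK cell (4), myeloid (7) and erythroid (4) markers summed to at most 8.71, 9.43, 7.8 and 0.894 CPM, with Klra8 and C1qa at 0 in every library. The myeloid sum was 1.33 and 1.35 CPM at 3 h in control-guide cells and 7.8 and 6.96 in Foxp3-guide cells, mostly Itgam and Itgax. Only 3 of the 7 myeloid genes had enough counts to be tested. These were at least 1.5-fold higher there, against 12% of all genes. A gene can pass the filter through the group where it is high, so nothing is read from this direction. Adgre1 had 6, 2, 7 and 6 counts with the control guide and 40, 39, 37 and 48 with the Foxp3 guide. Cd14 went the other way at 3 h, with 4 counts in both control-guide libraries and 1 in both Foxp3-guide libraries. The NK cell sum, mostly Eomes, went from 2.35 and 2.02 to 9.43 and 9.37 CPM with TCR in control-guide cells, against 3.88 and 3.58 and then 4.51 and 3.78 in Foxp3-guide cells. The plasma cell, B cell, stromal, myeloid and NK cell markers thus moved with TCR, guide or both, and their part in the results was not tested.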

How the data were processed

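Stranded RNA-seq libraries were trimmed with Trim Galore 0.6.3, aligned with STAR 2.7.9a to mm10 (GRCm38) and quantified with RSEM 1.3.1, per the submitters' processing notes; the annotation release is not given in the sources used here. The authors deposited expected counts per gene; rounding made them whole before the count test. The TPM values that the authors deposited served for levels compared between genes and as an alternative scale. All columns matched a library (0 left over), and GENCODE M21 supplied coordinates for all 33 genes.

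Genes were filtered with edgeR's filterByExpr (16642 kept) and scaled by TMM. A robust quasi-likelihood model with 1 mean per group was fitted to all 8 libraries (edgeR 4.0.16, limma 3.58.1, R 4.3.3; 4 residual degrees of freedom, common coefficient of variation 3.41%). P-values were adjusted by Benjamini-Hochberg over all tested genes, with a threshold of 0.05, and errors of log2 changes are SE. CPM uses TMM-scaled library sizes. Libraries of 1 group differed by more than counting error. The pipeline was tested on simulated data.

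The genes, role lists, pathway lists and markers were chosen with earlier results of these data known. Named with values were Hspa5, Xbp1, Atf6, Ern1, Eif2ak3, Ppp1r15a and Derl3, the 4 largest changes past the threshold in each direction of each comparison, and for the pathway lists the 2 largest; other genes named were added after their values were seen. Alternatives were size factors by RLE or upper quartile, DESeq2 1.42.0, limma on log2(TPM + 1), with the filter or without it, and on log2(TPM + 0.1), a count fit of every gene with a count, a filter of 1 CPM in every library, separate fits of the 4 libraries of each comparison, a block for replicate number, a fit without robust dispersion, a threshold of 0.01 and leaving out each library in turn.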

Additional observations from a re-analysis of the deposited data

Results flagged for a closer look

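For 22 of the 33 genes the TCR effect differed between the guides by a test of the difference itself. This was edgeR's quasi-likelihood test of the log2 TCR effect with the Foxp3 guide minus that with the control guide. Of all genes tested, 44.8% passed it, 17.8% upward and 27% downward, so passing was common in any list. The lumenal chaperone and helper genes gave 0.58 for Hyou1, 0.43 for Dnajc3, 0.39 for Creld2, 0.29 for Hsp90b1, 0.26 for Dnajb9, 0.22 for Hspa5 and 0.17 for Manf. The lectin chaperone and isomerase genes gave 0.61 for Ero1l, 0.59 for Calr, 0.47 for Pdia4, 0.28 for Pdia6, 0.14 for Pdia3 and -0.23 for P4hb. The translocon gene Sec61a1 gave 0.14. The degradation genes gave 1.22 for Herpud1, 0.41 for Syvn1 and 0.32 for Sel1l. The sensor and effector genes gave 0.52 for Xbp1, 0.48 for Ppp1r15a, 0.44 for Atf6, -0.71 for Eif2ak3 and -0.85 for Ern1.

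Of these, the calls of Sec61a1, Pdia3, Manf and Dnajb9 were each lost when single libraries were left out, with edgeR adjusted p-values of 0.052 to 0.17 for Sec61a1, 0.053 to 0.14 for Pdia3, 0.053 to 0.12 for Manf and 0.059 to 0.11 for Dnajb9 in the fits that lost them. The libraries concerned were 7 of the 8 for Sec61a1 (all but Foxp3-guide 3 h replicate 2), 6 for Pdia3, 4 for Manf and 3 for Dnajb9. Groups of 2 libraries allow no test for a single outlying library.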

How the results depend on the processing

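A set of named genes, most of them chosen for large changes, was followed over all alternatives. Of these results, 2575 kept their side of the threshold, 88 lost the threshold and 10 gained it. A further 20 changed sign and were past the threshold in the main fit, the alternative or both. Sign changes of genes past the threshold in neither, such as Atf6 at 0 h on the TPM scale, are not among the 20. The TPM scale moved most: the median of the 33 genes was 0.40, 0.42 with a pseudocount of 0.1, and 0.40 without a filter for TCR with the control guide, 0.69, 0.71 and 0.69 for TCR with the Foxp3 guide, -0.03 (each of the 3) and 0.23 (each) for the guide effect at 0 h and 3 h, and 0.27, 0.29 and 0.27 for the difference between TCR effects. On these 3 scales, 12, 12 and 12 genes were higher and 13, 13 and 11 lower at 0 h, 10 each were lower with TCR in control-guide cells, and 3, 4 and 3 were at least 1.5-fold different at 3 h; without a filter, 18 were higher and 4 lower there. Of all 33 genes, those past the threshold that changed sign on each of the 3 were 6 at 0 h, 4 at 3 h, 5 for TCR with the control guide (6 with upper-quartile scaling), 2 for TCR with the Foxp3 guide and 0 for the difference. Genes with the other sign on these 3 scales included Hspa5 (-0.16 each) and Xbp1 (-0.20, -0.21 and -0.20) at 0 h. At 3 h they included Ern1 (-0.08, -0.09 and -0.08) and Eif2ak3 (-0.04, -0.05 and -0.04). For TCR with the control guide they included Herpud1 (-0.23 each) and Ern1 (-0.17, -0.19 and -0.17). With upper-quartile scaling Herpud1 and Ern1 were at -0.09 and -0.03 in that comparison. Atf6 at 0 h (0.07 on counts, -0.18 on log2(TPM + 1)) and the Derl3 difference (-0.19 and 0.11) also changed sign. Neither of these passed the threshold on either scale. The cause was not tested.

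Medians under RLE, upper-quartile scaling and DESeq2 were 0.16, 0.13 and 0.16 for the guide effect at 0 h, 1.01, 0.79 and 1.01 for TCR with the Foxp3 guide and 0.24 each for the difference; that for TCR with the control guide was 0.57 with upper-quartile scaling, which counted 9 lower genes at 0 h. With no filter on low counts, the medians were 0.25 (guide, 0 h), 0.92 (TCR, Foxp3 guide) and 0.14 (difference), 3 genes were lower at 0 h and 1 at 3 h, and 3 differences reached 1.5-fold. With at least 1 CPM in all libraries, which left out Derl3, they were 0.18 at 0 h and 0.20 for the difference; with only the 4 libraries compared, 0.19 at 0 h and 1.0 for TCR with the Foxp3 guide. An adjusted p of 0.01 left 1 lower gene at 3 h.

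Leaving out 1 library gave medians of 0.19 to 0.23 and 0.37 to 0.45 (guide, 0 h and 3 h), 0.7 to 0.84 and 0.92 to 1.03 (TCR, control and Foxp3 guide) and 0.14 to 0.23 (difference). Counts of higher genes ran from 18 to 21, 27 to 30, 24 to 27, 27 to 27 and 15 to 19 in that order, of lower genes from 3 to 7, 1 to 2, 4 to 5, 5 to 5 and 3 to 3, and of 1.5-fold changes from 5 to 6, 9 to 12, 20 to 22, 23 to 24 and 3 to 6. Same-numbered libraries showed no strong shared deviation (correlations of deviations -0.0989 to 0.071). This cannot show whether they shared an animal or culture. With a replicate block the medians were 0.21, 0.40, 0.81, 0.96 and 0.17, and the same numbers of genes passed in the guide and TCR comparisons. Of the 22 differences, 20 remained past the threshold with the block, all but Pdia3 and Sec61a1. Depth limits Derl3, with as few as 12 counts in a library.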
